A study of Rattus norvegicus with 4 samples.

Results

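The genes described here are 7 carriers of platinum drugs, chosen by name for their known roles: Slc31a1, Slc31a2, Slc22a2, Slc47a1, Atp7a, Atp7b and Abcc2. They were found on the arrays through the RefSeq accession that the scanner files give for each probe, a rule that uses no measured value. All 7 had a probe, with 9 probes between them, of 30367 probes and 26650 genes or unnamed transcripts in all. The study measured total RNA of the spinal dorsal horn, which receives sensory input from the body, in male rats aged 6 weeks, on day 10. Of 4 Agilent arrays, 2 were of rats given oxaliplatin, a platinum chemotherapy drug, and 2 of rats given vehicle, with 2 biological replicates in each group. Per the labels, every array carried Cy5-labelled RNA of its own group beside Cy3-labelled RNA of untreated rats, with no dye swap. The number of rats behind each extract, and the dose and route of the drug, are not given in the sources used here.

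Platinum drugs cross membranes on carriers whose usual cargo is copper, organic cations or glutathione conjugates. Slc31a1 encodes the high-affinity copper importer CTR1, and Slc22a2 an organic cation transporter that takes up oxaliplatin readily in the kidney and in sensory neurons. On the way out, the copper pumps Atp7a and Atp7b load copper into vesicles, Slc47a1 exchanges organic cations for protons, and Abcc2 pumps glutathione conjugates across the membrane. Sensory neurons, whose cell bodies lie in ganglia outside the cord, are the known site of oxaliplatin neurotoxicity.

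For 6 of the 7 genes, all but Slc47a1, RefSeq's table (build GRCr8) held a promoter, of which the 250 bases before the start were searched on both strands. The letters searched were GGGCGG (a GC box), TGACNNNGC (the core of an antioxidant response element) and TGCACNC and TGCGCNC (the core of a metal response element). No match overlapped another in the 6 windows. The windows of Slc31a1 and Atp7a lie within the listed gene, and that of Slc31a2 does so in part. Abcc2 and Slc22a2 are shown, because under the processing used here they had the smallest p in the group comparison and the largest ratio between channels, ranks that median centring changed, and because their windows lie wholly before the listed gene. Capitals mark GC boxes, the window of Abcc2 is chr1:252613625-252613874 on the plus strand, and that of Slc22a2 is chr1:50711020-50711269 on the minus strand.
Abcc2: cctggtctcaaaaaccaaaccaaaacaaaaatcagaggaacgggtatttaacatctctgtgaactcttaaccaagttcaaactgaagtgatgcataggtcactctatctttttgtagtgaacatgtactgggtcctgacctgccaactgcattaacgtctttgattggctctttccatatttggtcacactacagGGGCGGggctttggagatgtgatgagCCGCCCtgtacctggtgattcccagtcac
Slc22a2: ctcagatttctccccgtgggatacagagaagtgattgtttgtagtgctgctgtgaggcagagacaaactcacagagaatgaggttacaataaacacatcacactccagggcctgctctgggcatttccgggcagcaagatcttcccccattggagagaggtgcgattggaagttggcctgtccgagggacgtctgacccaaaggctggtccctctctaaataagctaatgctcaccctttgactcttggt
Abcc2 holds 2 GC boxes, starting at -55 on the plus and -29 on the minus strand, while none of the 4 motifs is in the window of Slc22a2. GC boxes are in 30.5% of 33469 promoters of this length. Among the other members, Slc31a1 has 1 GC box (at -36), Atp7b 1 metal response core of the first kind (10.3% of promoters), and Slc31a2 1 of the same and 1 antioxidant response core (10.1%). TGCGCNC, in 11.8% of promoters, is in none of the 6 windows.

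Each array carried 62976 spots, and the share of probes well above background was 82.6% to 85.4% in Cy5 and 76.8% to 88.1% in Cy3. Oxaliplatin replicate 2 had a dim Cy3 channel, with a median of 283.5, where the other 3 arrays had 494 to 564. Log2 Cy5/Cy3 ratios correlated across probes by 0.75 to 0.93 between arrays, and oxaliplatin replicate 1 correlated better with vehicle replicate 1 (0.92) than with oxaliplatin replicate 2 (0.85). The 2 oxaliplatin arrays shared 1 slide and were scanned on the same day. The vehicle arrays shared the other slide and were scanned on different days, so slide and group cannot be told apart. The protocol text names Cy3 labelling alone, so the ratio is given below strictly as Cy5 over Cy3. In whole tissue, fewer cells of a type and less RNA per cell cannot be told apart. With 2 arrays per group, the number of arrays limits the precision of every value.

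The drug was compared with vehicle to ask whether the dorsal horn carries more or less transcript of these carriers after treatment. No member passed the test on the ratio over all genes. The ratios of Abcc2 and Atp7a were lower on both oxaliplatin arrays than on both vehicle arrays, and those of the other 5 members overlapped between the groups. Of 22817 genes tested with limma, 0 (0%) passed at an adjusted p under 0.05, while 3341 (14.6%) had an unadjusted p under 0.05, and groups were apart in either direction for 49.2%. The share of members with groups apart, 2 of 7, was therefore below that of all genes. Members stood below on both oxaliplatin arrays in 2 cases, beside 22.2% of all genes, and above in 0 cases, beside 27%. The difference in the ratio was above 0 for 1 member, against 51.2% of all genes, and below 0 for 6, with a median difference of -0.067 (log2), beside a median of 0.0055 over all genes. For 5 members the difference was smaller in size than the median absolute difference of all genes, 0.14.

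**Figure D1:**
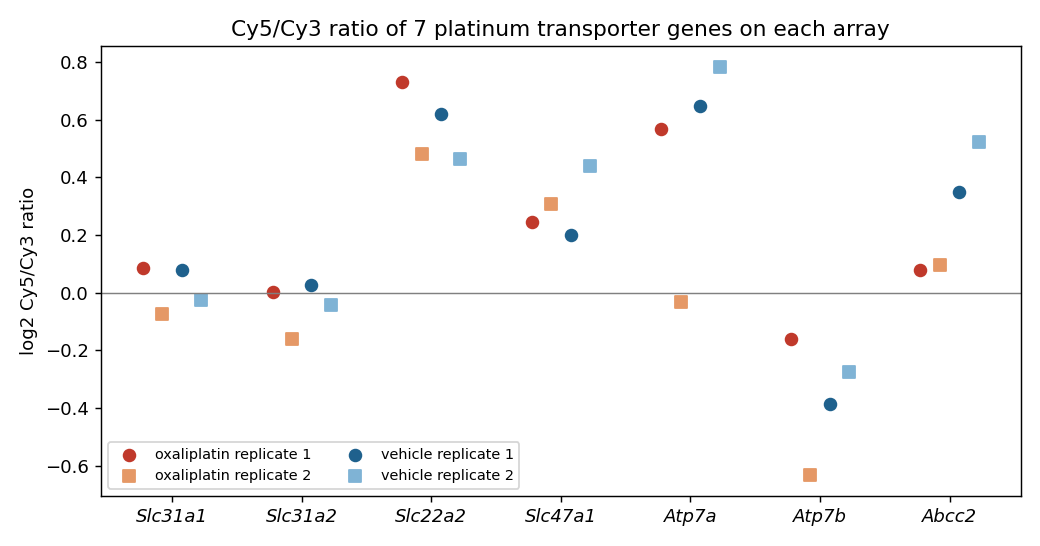
Log2 Cy5/Cy3 ratio (vertical axis) of the 7 genes (horizontal axis) on the 4 arrays, 1 point per array. Abcc2 and Atp7a have both oxaliplatin points below both vehicle points, and the other genes overlap.

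Among the importers, Slc31a1 had log2 ratios of 0.086 and -0.074 on the oxaliplatin arrays and 0.080 and -0.026 on the vehicle arrays. Each group thus spanned 0, and the groups overlapped fully. The mean was 0.0060 ± 0.11 (SD, n = 2) after oxaliplatin and 0.027 ± 0.075 after vehicle, a difference of -0.021 (95% confidence interval -0.31 to 0.27; limma, adjusted p = 0.956). That interval is not adjusted for the number of genes and is not a limit of detection. A difference of 0.85 in another gene, Sod3, did not pass over all genes either (limma, adjusted p = 0.294).

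The signals behind that flat ratio were not flat. In Cy5, the median pixel signal of the Slc31a1 probe was 447 and 383 on the oxaliplatin arrays and 259 and 208 on the vehicle arrays, over a local background of 64.0 to 68.0. In Cy3 it was 239 and 144 against 157 and 124, with oxaliplatin replicate 2 being the array with the low median Cy3 signal. Normalised channel signals were taken after the loess step, which adjusts each channel by the other. After quantile normalisation within the channel, the log2 Cy5 signal was 8.41 and 8.17 against 7.62 and 7.47. The log2 Cy3 signal, which the labels assign to untreated rats on all 4 arrays, was 8.33 and 8.27 against 7.54 and 7.49. Both channels therefore stood higher on the oxaliplatin slide, by 0.75 ± 0.12 (SE) in Cy5, a fold of 1.68, and by 0.79 ± 0.14 in Cy3, a fold of 1.73. Neither passed over all genes (limma, adjusted p = 0.141 in Cy5 and 0.145 in Cy3), where 0% of genes passed in each channel. Of all genes, 3.58% had a Cy5 difference at least as large, 4.93% a Cy3 difference at least as large, and 3.34% both. Without vehicle replicate 1 the Slc31a1 difference passed in Cy5 (0.82, adjusted p = 0.0290) and in Cy3 (0.81, adjusted p = 0.0495), in fits that called 5780 and 2058 genes.

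Slc31a2, which encodes the related protein CTR2 and is listed near Slc31a1 with 1 gene between them, had overlapping groups in the ratio and in both channels. Its brighter probe, with 10 spots per array, had log2 ratios of 0.0016 and -0.16 on the oxaliplatin arrays and 0.027 and -0.041 on the vehicle arrays. The 2 groups overlapped, and oxaliplatin replicate 2 was lowest. The difference was -0.073 ± 0.12 (SE; limma, adjusted p = 0.811). In Cy5 the difference was 0.0058 (95% confidence interval -0.23 to 0.24) and in Cy3 0.095 (-0.29 to 0.48). The second, dimmer probe of Slc31a2 (2 spots per array) disagreed, with ratios of -0.49 and -0.040 on the oxaliplatin arrays and -0.41 and -0.59 on the vehicle arrays. Its difference was 0.24 ± 0.17, opposite in sign to that of the brighter probe, and oxaliplatin replicate 2 stood apart from the other 3 arrays. With the mean over both probes the difference of Slc31a2 was 0.082.

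The organic cation carrier Slc22a2 had a Cy5 signal of 178 and 200 on the oxaliplatin arrays and 168 and 143 on the vehicle arrays, over a background of 58.0 to 64.5. Its Cy3 signal was 71.0 and 61.8 against 62.5 and 54.2, over a background of 37.5 to 43.5, and was not well above background on oxaliplatin replicate 2. Cy5 was thus clearly measured on all 4 arrays, while Cy3 lay near the limit of detection. The log2 ratios were 0.73 and 0.48 on the oxaliplatin arrays and 0.62 and 0.46 on the vehicle arrays, a difference of 0.062 ± 0.14 (SE; limma, adjusted p = 0.862), with the sign turned under median centring and in the scanner ratio. These groups overlapped, and the SD between the 2 spots of the probe was 0.061 to 0.31 on single arrays. In Cy5 alone Slc22a2 was higher on both oxaliplatin arrays (7.37 and 7.49 against 7.14 and 7.05, log2), by 0.34 ± 0.088 (adjusted p = 0.198). Its Cy3 signal differed by 0.23 ± 0.17 in the same direction, and by 0.45 with the processed signals of the scanner software.

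Slc47a1, the proton-coupled exporter of cations, gave Cy5 signals of 128 and 125 on the oxaliplatin arrays and 156 and 139 on the vehicle arrays, over a background of 58.5 to 64.5. In Cy3 the signals were 75.5 and 56.5 against 84.8 and 60.0, and the probe was not well above background on oxaliplatin replicate 2. The log2 ratios of 0.24 and 0.31 after oxaliplatin lay between those of 0.20 and 0.44 after vehicle. The difference was -0.043 ± 0.13 (SE; limma, adjusted p = 0.905), with differences of -0.057 in Cy5 and -0.044 in Cy3. With the scanner software's processed signals set against their 75th percentile, these were -0.54 in Cy5 and -1.02 in Cy3 (adjusted p = 0.177 and 0.237). The sign of the ratio difference depended on the processing: the difference was -0.47 after median centring and 0.47 when the ratio was taken from the scanner software, and neither passed.

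Among the exporters, Atp7a, the copper pump of the Golgi that is lost in Menkes disease, had a difference in the ratio that rested on 1 array. Its log2 ratios were 0.57 and -0.033 on the oxaliplatin arrays and 0.65 and 0.78 on the vehicle arrays. Both oxaliplatin arrays were lower, but they lay further from each other than oxaliplatin replicate 1 lay from the vehicle arrays. The means were 0.27 ± 0.43 (SD, n = 2) and 0.72 ± 0.097, and the difference was -0.45 ± 0.20 (SE; limma, adjusted p = 0.362). Leaving out oxaliplatin replicate 1 gave -0.75, which passed (adjusted p = 0.0403) in a fit that called 930 genes. Leaving out oxaliplatin replicate 2 gave -0.15 instead (adjusted p = 0.784). The value thus rested on oxaliplatin replicate 2, the array with the low Cy3 median. In Cy5 the log2 signals were 10.26 and 10.42 against 10.26 and 10.28, a difference of 0.073 ± 0.089. In Cy3 they were 9.71 and 10.48 against 9.59 and 9.49, a difference of 0.55 ± 0.27, so the ratio was lower where the normalised Cy3 signal was higher. Before normalisation the Cy3 pixel signals overlapped, at 617 and 596 against 652.5 and 579.

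Atp7b, the copper pump of liver that is lost in Wilson disease, had log2 ratios of -0.16 and -0.63 on the oxaliplatin arrays, which lay on either side of the vehicle values of -0.38 and -0.28. The difference was -0.067 ± 0.17 (SE; limma, adjusted p = 0.886), and the other Atp7b probe gave -0.046 ± 0.14. Like Slc31a1, Atp7b was higher on both oxaliplatin arrays in each channel. Its log2 Cy5 signal was 7.89 and 7.82 against 7.51 and 7.47, a difference of 0.36 ± 0.074 (adjusted p = 0.170). In Cy3 it was 8.04 and 8.50 against 7.89 and 7.73, a difference of 0.46 ± 0.20 (adjusted p = 0.266). Without vehicle replicate 1 the Cy5 difference of 0.39 passed (adjusted p = 0.0361), again among 5780 genes. The other Atp7b probe stood closer between the groups, with log2 signals of 7.33 and 7.21 against 7.15 and 7.10 in Cy5, and 7.20 and 7.25 against 6.93 and 7.12 in Cy3.

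Abcc2, the conjugate pump known as MRP2, had the smallest p of the members. Its log2 ratios were 0.079 and 0.097 on the oxaliplatin arrays and 0.35 and 0.52 on the vehicle arrays. The oxaliplatin arrays nearly coincided, and the vehicle arrays both lay above them. The means were 0.088 ± 0.012 (SD, n = 2) and 0.44 ± 0.12. The difference was -0.35 ± 0.12 (SE; 95% confidence interval -0.64 to -0.061), with an adjusted p = 0.308 in limma. Before adjustment the p from limma was 0.0243. This probe is printed at 10 places on each array, which gives an error within the array. The SD between its spots was 0.056 to 0.085, the highest spot on the oxaliplatin arrays was 0.26, and the lowest on the vehicle arrays was 0.27. Spots of 1 array share its RNA and so do not replace replicates.

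The Cy5 signal of Abcc2 scarcely differed, at 9.39 and 9.38 against 9.38 and 9.28 (log2), a difference of 0.057 ± 0.078. The Cy3 signal was 9.32 and 9.30 against 9.01 and 8.76, a difference of 0.42 ± 0.16 (adjusted p = 0.221). After the loess step and quantile normalisation, the lower ratio on the oxaliplatin arrays thus went with a higher Cy3 signal, in the channel labelled as untreated RNA. Before normalisation the Cy3 pixel signal was 481 and 274 against 446 and 337. It was lowest on oxaliplatin replicate 2, the array with the dim Cy3 channel. The Abcc2 ratio difference stayed below 0 under all 14 alternatives tried, from -0.43 to -0.26, and none of them passed the test. Most of these could not turn its sign. The filters, the blocks and the mean over probes leave the value of a single probe as it is. Leaving out an array cannot turn the sign of groups that do not overlap. The difference was -0.37 with no background correction, -0.28 after median centring, -0.39 in the scanner ratio and -0.31 with scaled ratios.

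**Figure D2:**
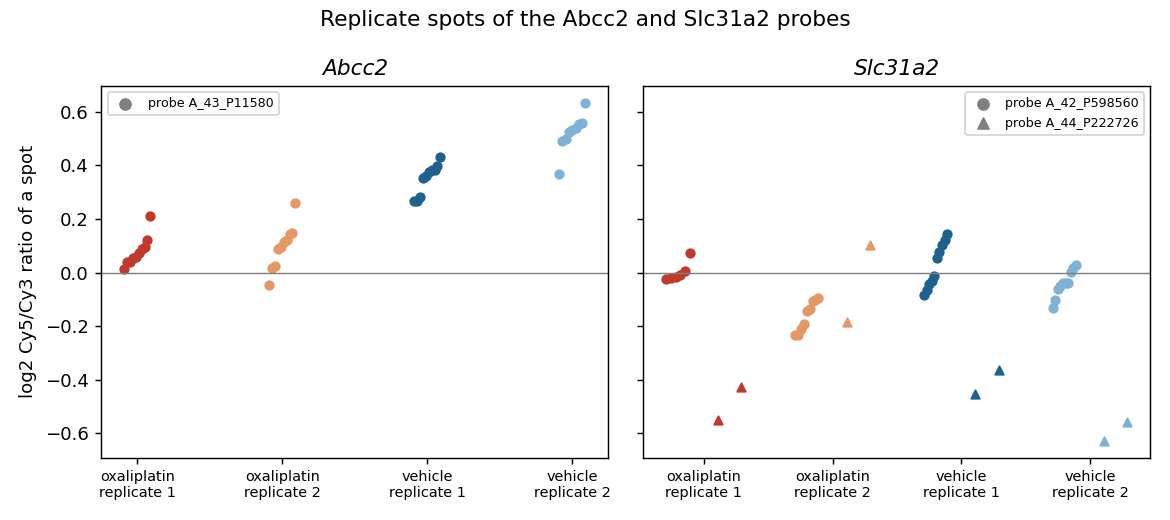
Log2 Cy5/Cy3 ratio of single spots (vertical axis) on each array (horizontal axis), spots of a probe ordered by value, outlier spots left out. Every Abcc2 spot on the vehicle arrays lies above every one on the oxaliplatin arrays, and the 2 Slc31a2 probes lie apart on 3 of the 4 arrays.

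In each channel, after the loess step and quantile normalisation, 4 members were higher on both oxaliplatin arrays in both Cy5 and Cy3: Slc31a1, Slc22a2, Atp7b and Abcc2. Over all genes 18.8% did so. Of these members 2 lay near the cut: Abcc2 in Cy5, where both groups hold a value of 9.38, and Slc22a2 in Cy3, where the probe was not well above background on oxaliplatin replicate 2. In Cy5 these 4 members stand beside 28.1% of genes that were higher on both oxaliplatin arrays, and in Cy3 5 members stand beside 27.1%. The oxaliplatin arrays were apart from the vehicle arrays in either direction for 60.1% of genes in Cy5 and 58.4% in Cy3. The fifth in Cy3 was Atp7a, while Slc31a2 and Slc47a1 overlapped in each channel. After quantile normalisation no member was lower on both oxaliplatin arrays in either channel, as 32% of genes were in Cy5 and 31.3% in Cy3. Slc47a1 was lower on both oxaliplatin arrays in each channel by the scanner software's processed signal, which is not scaled between arrays. It was at 45.9 and 32.7 against 70.1 and 82.2 in Cy5 and 24.0 and 14.2 against 51.4 and 43.3 in Cy3. The processed Cy5 signal of Abcc2 also varied between arrays, at 648 and 468 against 645 and 822. Set against the 75th percentile, the Slc47a1 differences were -0.54 in Cy5 and -1.02 in Cy3. As the 2 channels share arrays, a slide and the loess step, they are not independent of each other. Marker genes also differed in Cy3 between the slides. The summed log2 Cy3 signal of the meningeal genes was 14.50 and 14.63 on the oxaliplatin arrays and 14.13 and 14.16 on the vehicle arrays. That of the oligodendrocyte genes was 18.58 and 18.95 against 19.25 and 19.34, and the part of these cells in the values of the members was not tested. No gene passed in either channel (0 genes with limma), where 4662 (20.4%) had an unadjusted p under 0.05 in Cy5 and 4816 (21.1%) in Cy3.

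**Figure D3:**
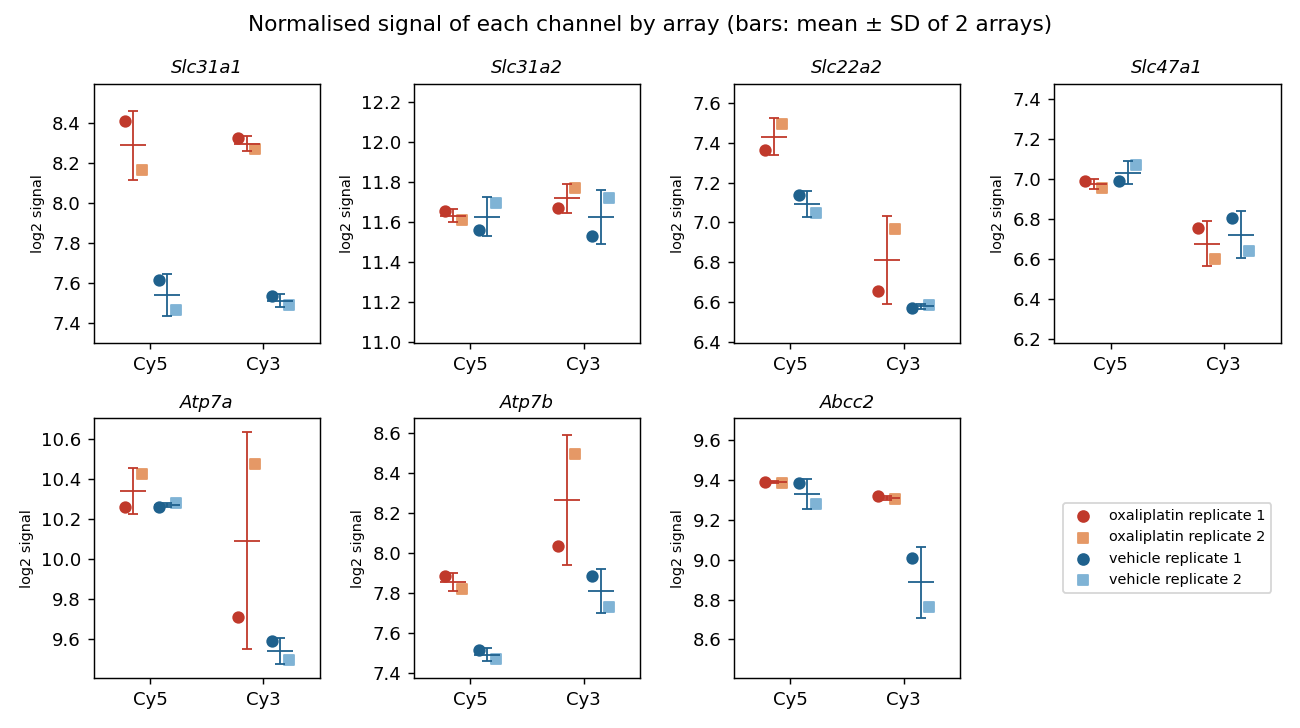
Normalised log2 signal (vertical axis) of each gene in Cy5 and Cy3 (horizontal axis), 1 point per array, with the mean and SD of the 2 arrays of a group. Slc31a1 is higher on both oxaliplatin arrays in both channels, and the Cy3 points of Atp7a are spread by oxaliplatin replicate 2.

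**Figure D4:**
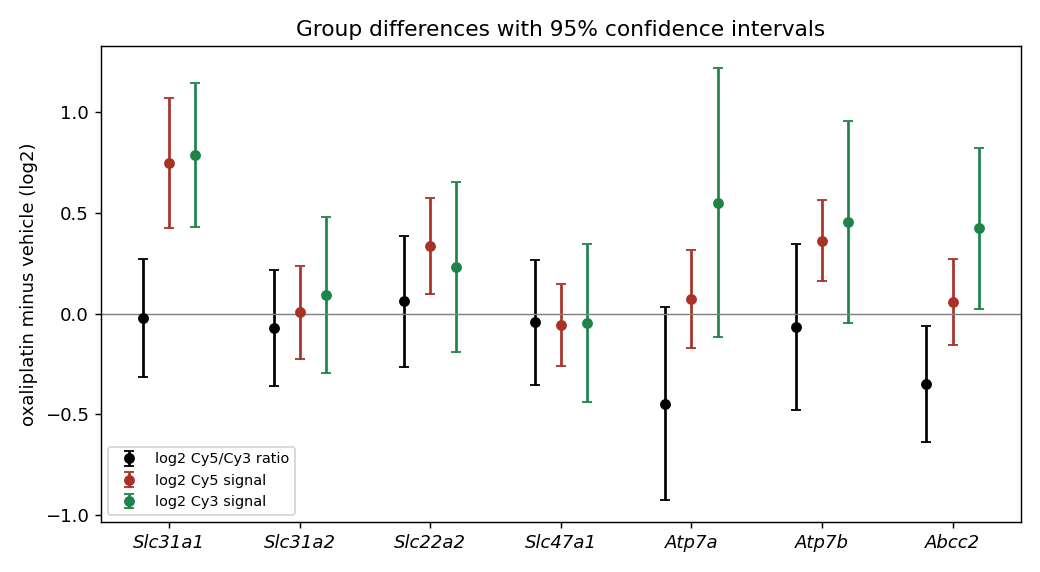
Difference between oxaliplatin and vehicle arrays (log2, vertical axis) with its 95% confidence interval from limma, before adjustment, for the ratio, Cy5 and Cy3 of each gene (horizontal axis). The ratio of Slc31a1 lies at -0.021 while its Cy5 lies at 0.75 and its Cy3 at 0.79.

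The ratio over all 4 arrays compares the RNA in the Cy5 channel with that in Cy3, and dye and source of RNA cannot be told apart in it. Of the 7 members, 4 were higher in Cy5 and 1 in Cy3 (limma, adjusted p under 0.05), beside 29.3% and 26.3% of all genes and 55.6% in either direction. Probes were kept on their Cy5 signal alone. Slc22a2 and Slc47a1 entered through that channel, with Cy3 near background and not well above it on oxaliplatin replicate 2. Their calls therefore only describe these signals. All 4 ratios were above 0 for 3 members, beside 34% of genes, and below 0 for 1 member, beside 27.6%. Slc22a2 was higher in Cy5 by 0.57 ± 0.068 (SE, log2; adjusted p = 5.79e-04), with ratios above 0 on 4 of 4 arrays. Atp7a was higher by 0.49 ± 0.10 (adjusted p = 0.00599; 3 of 4 arrays), Slc47a1 by 0.30 ± 0.065 (adjusted p = 0.00785) and Abcc2 by 0.26 ± 0.060 (adjusted p = 0.00963), both on 4 of 4 arrays. Atp7b was lower in Cy5, at -0.36 ± 0.086 (adjusted p = 0.0110), on 4 of 4 arrays, but its other probe was at 0.077, and with the mean over both probes Atp7b no longer passed (-0.14, adjusted p = 0.123). The copper importers stayed near equality, with Slc31a1 at 0.016 (95% confidence interval -0.13 to 0.16) and Slc31a2 at -0.043 (-0.19 to 0.10).

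The size of these ratios depended on the processing. The mean ratio of Slc22a2 was 1.64 when taken from the scanner software and 0.31 after median centring, and passed in both. That of Slc47a1 was 0.98 and -0.036, and only the former passed. Leaving out vehicle replicate 2 also ended the call of Slc47a1 (0.24, adjusted p = 0.0697). Abcc2 did not pass when the scanner's own ratio was used (0.20, adjusted p = 0.0639). It did not pass either once vehicle replicate 2 was left out (0.22, adjusted p = 0.0885). Some marker lists also differed between the channels. Of 15 genes of sensory ganglia and Schwann cells, 14 were higher in Cy5 with a list median of 2.75. Their summed log2 signal ranged from 17.30 to 17.46 in Cy5 and from 15.15 to 15.38 in Cy3. Of 11 genes of the meninges, 10 were higher in Cy5, with a median of 0.98, and the collagen Col1a1 was at 2.51. Of 8 oligodendrocyte genes, all 8 were higher in Cy3, with a median of -1.43, and Mag, a myelin adhesion protein, was at -1.55. Every marker of those 3 lists had Cy5 well above background on at least 2 arrays, and the part of these tissues in the values of the members was not tested. Of 10 measured markers of spinal neurons, 3 were higher in Cy5 and 4 in Cy3, and Slc32a1, the vesicular transporter of inhibitory neurons, was at -0.41.

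The genes whose signals ran most alike to a member's, over 8 values (4 arrays by 2 channels), are given as a description, since the values share arrays and channels. For Slc31a1 these were Oxsm (r = 0.98), Uqcrq (0.97) and Amigo2 (0.97), and 0.768% of 13936 genes with a symbol had an r over 0.9. For Slc22a2, Galnt5 ran closest (r = 0.997), and 5.61% of genes exceeded 0.9. Atp7a ran closest to Vps26c (r = 0.996), Atp7b to Inpp4b (0.97), Abcc2 to Crygs (0.99), Slc47a1 to Fnbp1l (0.98) and Slc31a2 to H2ac1 (0.97).

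Other genes of platinum and copper handling were described in 6 lists, and none of their members passed in either direction over all genes (limma, 0 genes). Without oxaliplatin replicate 1, Sod3 (1.09), Slc46a3 (0.78), Cox17 (-0.76), Lrrc8d (0.66) and Gstm1 (0.80) passed, in a fit that called 930 genes. Of 25 measured copper-handling genes, 14 had higher and 11 lower ratios on the oxaliplatin arrays, with a median of 0.070. Beside this and the other lists, 51.2% of all genes had a higher ratio, and no list was tested as a set. The extracellular superoxide dismutase Sod3 differed by 0.85 ± 0.18 (SE), the metal-responsive transcription factor Mtf1 by 0.47 ± 0.14, and Cox17, a mitochondrial copper chaperone, by -0.51 ± 0.18. The lysosomal carrier Slc46a3 was at 0.57 ± 0.16. Without oxaliplatin replicate 2, Cox17 was at -0.25 and Slc46a3 at 0.36, the value that Slc46a3 also had after median centring. Atox1, the chaperone that hands copper to Atp7a and Atp7b, was at -0.0015 ± 0.12, with overlapping groups and a sign that turned under median centring, and Ccs, the chaperone of superoxide dismutase, at 0.31 ± 0.12. Of 9 metallothionein and zinc carrier genes 5 were higher and 4 lower (median 0.016). The metal-binding proteins Mt1 and Mt2A differed by 0.36 ± 0.13 and 0.32 ± 0.12, and the neuronal form Mt3 by -0.069 ± 0.11 (-0.010 after median centring). In Cy5 alone Mt1 and Mt2A were at -0.043 and -0.050, against -0.39 and -0.36 in Cy3.

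Of 16 organic cation and anion carriers, 11 were higher and 5 lower (median 0.087). Slco1a4, an anion carrier of brain endothelium, differed by -0.61 ± 0.15, and Slco2b1 by 0.39 ± 0.15 (0.22 without oxaliplatin replicate 2). Among cation carriers, Slc22a3 was at 0.079 ± 0.11, with the sign turned under median centring, Slc29a4 at 0.22 ± 0.13 and Slc22a4 at -0.28 ± 0.14. Slc29a4 was at 0.12 without oxaliplatin replicate 1, and Slc22a4 at -0.14 without oxaliplatin replicate 2 and -0.16 after median centring. Of 17 ABC efflux pumps, 9 were higher and 8 lower (median 0.077). Abcg2, a drug pump of the blood-brain barrier, had log2 ratios of -0.017 and 0.34 on the oxaliplatin arrays and 1.11 and 0.83 on the vehicle arrays, a difference of -0.81 ± 0.17 (adjusted p = 0.294). Like Abcc2, Abcg2 differed more in Cy3 (1.07) than in Cy5 (0.22). Abcb1a, the pump P-glycoprotein, had a ratio difference of -0.024 ± 0.14, with the sign turned under median centring and scaled ratios, but was higher on the oxaliplatin arrays by 1.81 in Cy5 and 1.85 in Cy3, and 0.64% of genes had differences at least as large in both. Abcc4 differed by -0.35 ± 0.12, Abcc1 by 0.34 ± 0.12 and Abca1 by 0.45 ± 0.17. With the mean over probes Abcc4 was at -0.15 and Abcc1 at 0.078, median centring gave -0.18 for Abcc4, and Abca1 was at 0.23 without oxaliplatin replicate 2. Of 10 markers of endothelium, Slco1a4 itself among them, 3 were higher and 7 lower. Their summed log2 Cy3 signal, Slco1a4 included, was 15.33 to 15.44 on the oxaliplatin and 15.17 to 15.75 on the vehicle arrays. The part of endothelium in the values of Abcg2 and Slco1a4 was not tested.

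The 5 subunit genes of the volume-regulated anion channel, which also conducts platinum drugs, had a median of 0.020. Lrrc8d differed by 0.46 ± 0.16, Lrrc8b by 0.31 ± 0.12 and the essential subunit Lrrc8a by -0.28 ± 0.18. Without oxaliplatin replicate 2 Lrrc8a was at -0.029 and Lrrc8d at 0.26, and without oxaliplatin replicate 1 Lrrc8a was at -0.54. The ratio of the scanner software gave -0.44 for Lrrc8a. Of 23 genes of glutathione and conjugation, 18 were higher and 5 lower, with a median of 0.15, beside 51.2% of all genes higher. Gstm1, a glutathione transferase, had ratios of -0.0013 and 0.21 against -0.53 and -0.64, a difference of 0.69 ± 0.13 (adjusted p = 0.294), and Txnrd1 differed by 0.39 ± 0.13, Ggt1 by 0.38 ± 0.13 and Gstm5 by 0.37 ± 0.12. The mean over probes gave 0.14 for Txnrd1, and median centring 0.13 for Ggt1. Gclc, which makes the limiting step of glutathione synthesis, was at 0.13 ± 0.12, and Gstp1 at 0.10 ± 0.14, with the sign turned under scaled ratios. Gclc was at 0.26 after median centring, 0.080 without oxaliplatin replicate 2 and 0.085 without vehicle replicate 1. The median difference of the glutathione genes was -0.078 in Cy5 and -0.22 in Cy3, so their higher ratios went with lower Cy3 signals. Of 8 astrocyte genes, 7 had a higher ratio (median 0.32), beside the same 51.2% of all genes. Their Cy3 median was -0.25, and their part in the glutathione genes was not tested.

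**Figure D5:**
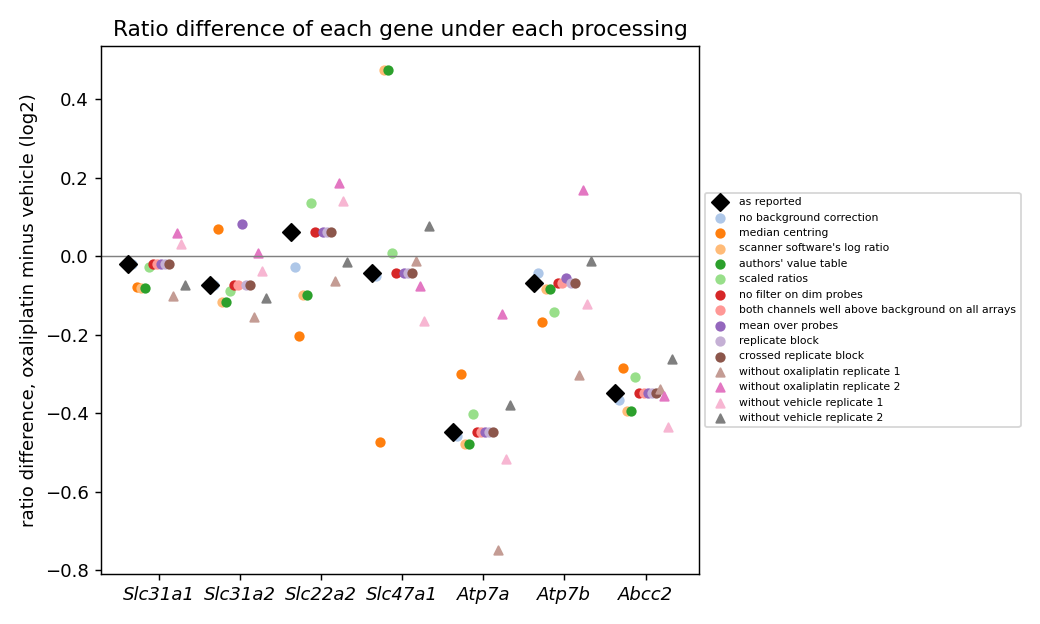
Difference in the log2 ratio, oxaliplatin minus vehicle (vertical axis), of each gene (horizontal axis) as reported and under each alternative processing or with an array left out. Abcc2 and Atp7a stay below 0 throughout, and the other 5 genes have values on both sides of 0. As the groups of Abcc2 and Atp7a do not overlap, leaving out an array cannot turn their sign.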

How the data were processed

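Per the file headers, each deposited scanner file lists spot intensity and local background intensity (median pixels, Cy3 and Cy5), processed signals and the log10 ratio of Cy5 over Cy3, made with Agilent Feature Extraction 10.7.1.1. The submitters' processing notes name 8.5.1.1. Other values there are detection, saturation and outlier flags set by that software, per the file headers. The authors' value table repeats the log10 ratio, with a largest gap of 0.0050 and medians of -0.00277, 0, -0.00492 and -0.00316 (oxaliplatin replicates 1 and 2, vehicle replicates 1 and 2), so its scale, centring and direction are those of the scanner ratio.

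Here, signals were corrected with normexp (offset 50) and log2 ratios normalised by loess in limma 3.58.1 under R 4.3.3, control spots (4259 per array) having weight 0. Outlier spots were left out and spots of a probe averaged. A probe counted as well above background where at least 50% of its spots were. Probes with Cy5 well above background on at least 2 arrays were kept (25998), each gene by its probe of highest mean signal (22817 genes). RefSeq accessions named 18758 probes. Single channels were rebuilt from the loess-normalised ratio and the mean signal of both channels, then quantile-normalised. Each channel thus holds an adjustment that depends on the other. Group differences used lmFit and eBayes (two-sided, residual df 2, prior df 4.74 in the ratio fit, Benjamini-Hochberg over all genes, threshold 0.05). Confidence intervals are not adjusted. As nothing states how many animals an extract holds, p-values measure the spread between these arrays. The spread of each gene is drawn by eBayes toward that of all genes.

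The members and lists were chosen with earlier results of these data known. Named genes are the 7 members, 10 genes whatever their values, up to 4 genes per pathway list with the smallest p, up to 4 bright genes per marker list where they touch a result, and the 3 genes most like each member, of which some are given by number only. The fit was also run on simulated data with independent noise and no difference between slides, which does not test the comparison of these arrays. Same-numbered replicates were checked for pairing, and their deviations correlated by -0.20. That value cannot decide the question, and the labels name no pairing, so the fit has no block. Alternatives are given in the closing section.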

Additional observations from a re-analysis of the deposited data

How the results depend on the processing

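No member passed on the ratio between groups under the alternatives run, except Atp7a without oxaliplatin replicate 1 (-0.75). The count of members with a higher ratio, 1 of 7, was 0 with no background correction, 0 with both channels well above background on all arrays, 2 with scaled ratios, 2 with the mean over probes, and 0 to 4 with an array left out. The filter on both channels took out Slc47a1 and also Slc22a2, the only member with a higher ratio, so its count was fixed by the filter. The count of all genes passing on the ratio, 0, was 2 to 930 with an array left out (930 for oxaliplatin replicate 1, 15 for oxaliplatin replicate 2, 33 for vehicle replicate 1 and 2 for vehicle replicate 2). In Cy5 it was 0 to 5780 and in Cy3 0 to 2058, highest without vehicle replicate 1 in each, and 807 and 108 without vehicle replicate 2. A group left with 1 array was assumed to vary like the other, and the cause of these shifts was not tested.

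Deviations of same-numbered replicates correlated by -0.20. With 2 arrays per group the deviations mirror each other, so this value cannot show whether such replicates share anything. With the replicate block 3 genes passed, and no member's call changed. With the crossed pairing 537 genes passed, among them 3 of the other named genes and no member. Scan day as a random block could not be fitted. Of 12693 genes called between Cy5 and Cy3, 1062 had a mean ratio of at least 1 in size, and with an array left out 9326 to 13210 were called.

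The sign of small differences turned in these cases. With no background correction the Slc22a2 difference was -0.027 and the Slc31a1 mean ratio -0.0016. Median centring gave differences of 0.070 for Slc31a2, -0.20 for Slc22a2, -0.30 for Lrrc8e, 0.11 for Atox1, 0.11 for Abcb1a and -0.13 for Slc22a3, and mean ratios of -0.053 for Slc31a1, 0.15 for Slc31a2 and -0.036 for Slc47a1. Using the log ratio of the scanner software or the authors' value table, the differences were -0.10 for Slc22a2, 0.47 for Slc47a1 and 0.041 for Atox1, and the Slc31a1 mean ratio -0.078. Scaled ratios gave 0.0087 for Slc47a1, 0.012 for Abcb1a and -0.055 for Gstp1, and the mean over probes gave 0.082 for Slc31a2. The Cy5 difference of Slc31a2 was -0.023 with signals set against their 75th percentile, an alternative chosen after seeing the data, as were those of single channels, the crossed pairing and the scan day.

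With an array left out, differences ranged from -0.10 to 0.059 for Slc31a1, -0.15 to 0.0087 for Slc31a2, -0.063 to 0.19 for Slc22a2, -0.16 to 0.077 for Slc47a1 and -0.30 to 0.17 for Atp7b. Ranges were -0.64 to 1.7e-04 for Slc30a1, -0.050 to 0.090 for Lrrc8e, -0.050 to 0.047 for Atox1, -0.17 to 0.13 for Abcb1a and -0.016 to 0.23 for Gstp1. The Slc31a1 mean ratio ranged from -0.023 to 0.056, the Cy5 difference from -0.063 to 0.074 for Slc31a2 and -0.0085 to 0.15 for Atp7a, and the Cy3 difference from -0.13 to 0.039 for Slc47a1.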

Other observations

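Abcb1a, the drug pump P-glycoprotein of the blood-brain barrier, shared the pattern of Slc31a1 with larger differences. Its log2 Cy5 signal was 9.38 and 9.57 on the oxaliplatin arrays and 8.44 and 6.91 on the vehicle arrays, and its Cy3 signal 9.16 and 9.33 against 7.99 and 6.79. The differences were 1.81 ± 0.53 (SE) in Cy5 and 1.85 ± 0.39 in Cy3 (limma, adjusted p = 0.212 and 0.158). The ratio of Abcb1a differed by -0.024 ± 0.14, a value that lies near 0 because both channels differ alike. In each channel the vehicle arrays lay further apart than the oxaliplatin arrays, and the groups did not overlap.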
